A study of Homo sapiens with 12 samples.

Results

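Aminoacyl-tRNA synthetases, the enzymes that join each amino acid to its transfer RNA, were followed in proliferating and irradiated human fibroblasts. The group was taken as 35 listed genes, 19 for the cytosolic enzymes and 16 for the mitochondrial ones, kept where the mean over 12 libraries was at least 10 normalized counts. All 35 symbols were in the table and 33 genes were kept, 18 cytosolic and 15 mitochondrial, of 11242 genes that passed the same filter and 16383 listed in all. VARS1 and VARS2, the cytosolic and mitochondrial enzymes for valine, did not pass, with means of 8.21 and 1.23.

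RNA was captured by its poly(A) tail from IMR90, an established human cell line of lung fibroblasts, labelled wild type throughout. Proliferating cells were untreated, and the other 3 groups had received 20 Gy of ionizing radiation over 10 min and were harvested on day 11. These irradiated cells, which the labels call senescent, received DMSO, 2 µM palbociclib (which inhibits CDK4 and CDK6, kinases of the cell cycle) or 2 µM ruxolitinib (which inhibits the Janus kinases JAK1 and JAK2). The inhibitors were given on days 4, 6, 8 and 10. No harvest day is given for the proliferating cells. Below, "with irradiation" stands for irradiated DMSO cells against proliferating cells. In that comparison radiation, DMSO, time in culture and the end of proliferation cannot be told apart. Each group had 3 libraries. The labels do not say whether these came from separate cultures, so p-values measure the spread between these samples, which may be technical.

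A synthetase recognises both its amino acid and the matching transfer RNA, and the charged transfer RNA is what the ribosome uses. Most amino acids have a cytosolic and a separate mitochondrial enzyme, both encoded in the nucleus, whereas GARS1 and KARS1 supply the glycine and lysine enzymes of both compartments. Several cytosolic enzymes are held in the multisynthetase complex, and many cytosolic synthetase genes are known targets of ATF4, the transcription factor of the amino acid and integrated stress responses. WARS1, the cytosolic enzyme for tryptophan, is also an interferon-induced gene.

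The recovered reads over listed genes ranged from 14106799 to 21762412 per library. LMNB1 (lamin B1) fell with irradiation by 4.68 on the log2 scale (adjusted p = 2.2e-13) and CDKN1A (the cell cycle inhibitor p21) rose by 3.11 (adjusted p = 4.6e-15). All 10 fibroblast markers passed the filter, and of these 8 fell and 2 rose with irradiation, 8 rose and 1 fell with palbociclib, and 3 rose and 1 fell with ruxolitinib. Their summed level was 1051823 to 1094861 normalized counts in proliferating cells, 600274 to 607211 with DMSO, 869355 to 924446 with palbociclib and 716303 to 723759 with ruxolitinib. The sum of 6 leukocyte markers was 544 to 571, 1224 to 1308, 697 to 806 and 1070 to 1150 in the same order. CD68 and CD14, the leukocyte markers that passed the filter, rose with irradiation and fell with palbociclib, whereas PTPRC was at most 9.90 and CD3E at most 2.70. The sum of 6 epithelial markers was 332 to 445, 560 to 672, 847 to 1049 and 620 to 668, mostly from KRT8 and KRT19, which rose with irradiation and with palbociclib. Among 5 endothelial markers, TEK and VWF rose with irradiation and TEK with palbociclib, and the sum was 1681 to 1949, 2382 to 2544, 3500 to 4381 and 2241 to 2250. The part of these markers in the results below was not tested. In these bulk samples, fewer cells of a type and less RNA per cell cannot be told apart. Adjusted p-values come from limma fitted to 11242 genes, on log2(normalized count + 1), and "rose" or "fell" means an adjusted p under 0.05.

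Levels were compared between genes per kilobase of the MANE transcript, the one reference transcript chosen per gene. On this scale GARS1 was the highest, with a mean of 2955 normalized counts per kilobase over the 12 libraries. SARS1 (serine) followed at 2309 and IARS1 (isoleucine) at 1620. Most cytosolic genes lay above most mitochondrial ones, with IARS2 (826), RARS2 (557) and CARS2 (500) as the highest mitochondrial genes and PARS2 (proline) at 34.2. CARS1, the cytosolic enzyme for cysteine, was the lowest gene kept, at 29.7. Of the protein-coding genes listed within 250 kb, the mean was under 10 for 36 of 38 around VARS1 and 11 of 11 around VARS2, against 27.7% of all 15244 listed protein-coding genes with a position. Around CARS1 it was 3 of 6. Of the exon bases of VARS2, 100% are shared on the same strand with another annotated gene, against 0% for VARS1. Reads of VARS2 may therefore be split or lost by the counting. Whether the low counts of VARS1, VARS2 and their neighbours reflect little RNA or how reads were mapped and counted was not tested.

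Irradiated DMSO cells had less RNA of the cytosolic synthetases than proliferating cells. Of 18 cytosolic genes, 16 fell and 0 rose, with a median log2 change of -0.44, against -0.05 over all genes tested. Of 15 mitochondrial genes, 7 fell and 0 rose, with a median of -0.13. Over all genes tested, 39.3% fell and 33.0% rose. Summed over all 19 listed genes, VARS1 included, cytosolic synthetase RNA was 69002 ± 1384 normalized counts (SD, n = 3) in proliferating cells and 50509 ± 1089 with DMSO. The mitochondrial sum over all 16 listed genes was 9317 ± 89.9 and 8344 ± 52.5. At an unadjusted p under 0.05, 0 cytosolic genes and 1 mitochondrial gene were higher, and the share of all genes at that threshold was not computed. The edgeR quasi-likelihood test and DESeq2, run on recovered reads, each called 2 members higher, both mitochondrial. Of all genes, 36.5% were higher in edgeR and 35.8% in DESeq2.

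The deepest falls among cytosolic genes were in LARS1 and MARS1, which charge leucine and methionine and sit in the multisynthetase complex. LARS1 was at 3300, 3208 and 3314 normalized counts in proliferating cells and at 1801, 1828 and 1685 with DMSO, a log2 change of -0.89 ± 0.05 (SE, adjusted p = 6.8e-10). MARS1 was at 4564, 4802 and 4731 against 2610, 2607 and 2602, a change of -0.85 ± 0.05 (adjusted p = 1.6e-10). In both genes every proliferating library lay above every DMSO library. KARS1 was at 2990, 3033 and 3001 against 1964, 2007 and 2004, a change of -0.59 (adjusted p = 4.3e-08), again without overlap. YARS1 (tyrosine) fell by 0.76 and FARSB, the beta subunit of the phenylalanine enzyme, by 0.69.

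EPRS1, which carries the glutamate and proline enzymes in a single protein of the complex, did not pass the test. Its proliferating libraries were at 6005, 5338 and 6339 and its DMSO libraries at 5349, 5589 and 5390, so the groups overlapped, with a log2 change of -0.11 (95% interval -0.25 to 0.03, adjusted p = 0.14). Without library A126, a proliferating library, the change was -0.18 and passed the test (adjusted p = 0.016). CARS1 did not pass either, at -0.02 with a wide interval of -0.63 to 0.58.

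Among the 7 mitochondrial genes that fell, NARS2 and SARS2 had the largest changes. NARS2, the asparagine enzyme, was at 341, 377 and 352 in proliferating cells and at 170, 121 and 132 with DMSO, a log2 change of -1.35 ± 0.13 (SE, adjusted p = 1.3e-07). SARS2 (serine) was at 292, 332 and 292 against 174, 167 and 171, a change of -0.83 ± 0.11 (adjusted p = 7.5e-06). The groups did not overlap in either gene. FARS2 (phenylalanine) fell by 0.61, LARS2 (leucine) by 0.37 and YARS2 (tyrosine) by 0.27. HARS2 and EARS2, for histidine and glutamate, fell by 0.23 and 0.19, while 8 mitochondrial genes did not pass, among them RARS2 (0.09) and AARS2 (0.07). Of the exon bases of SARS2, 77.5% are shared on the same strand with a readthrough gene, so its reads may be split or mixed by the counting.

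**Figure D1:**
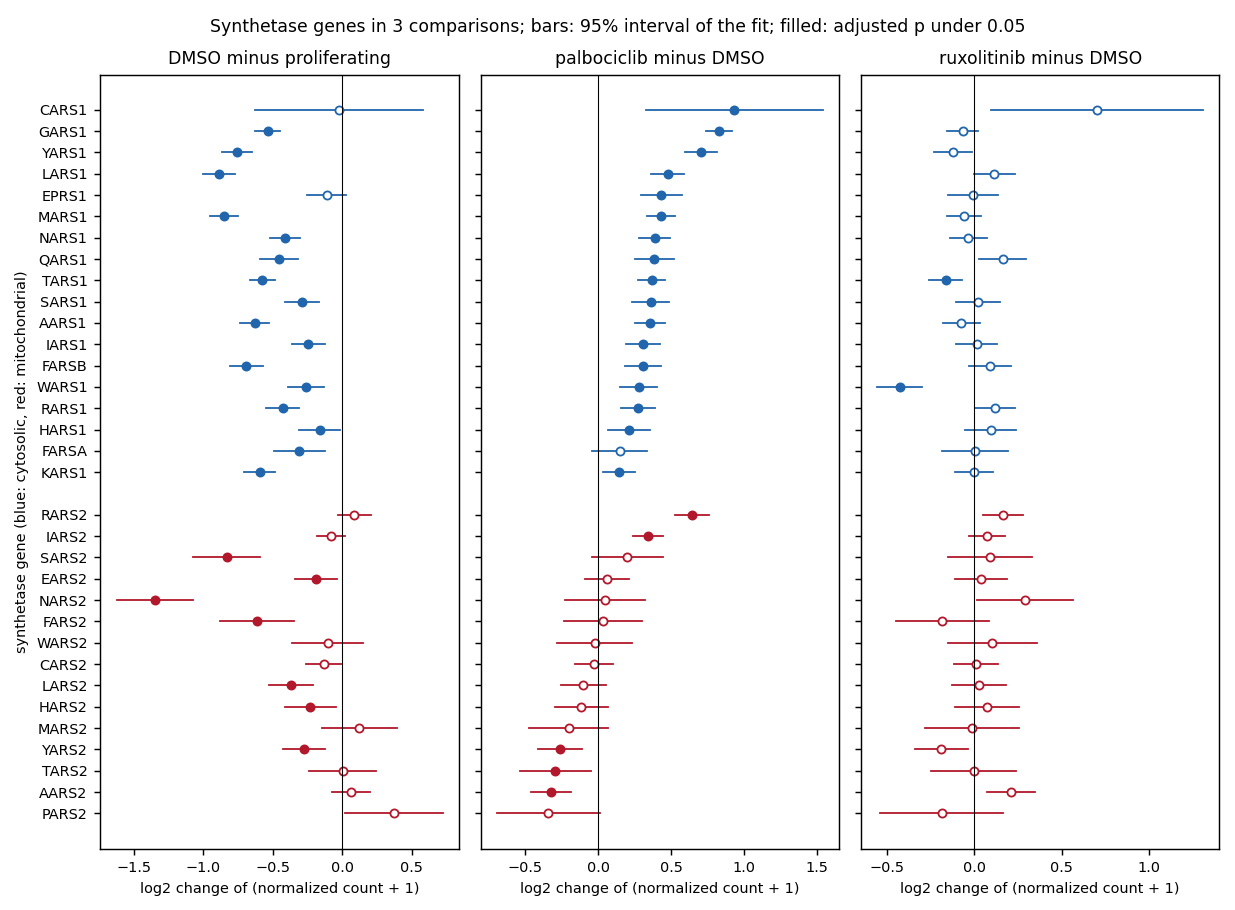
Log2 change of (normalized count + 1) for the 33 synthetase genes in 3 comparisons, 1 gene per line, blue for cytosolic and red for mitochondrial. Bars are 95% intervals from limma and filled points have an adjusted p under 0.05; the blue points lie left of 0 with DMSO against proliferating cells, right of 0 with palbociclib against DMSO, and on both sides of 0 with ruxolitinib, where WARS1 and TARS1 are the filled points.

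Palbociclib-treated irradiated cells had more cytosolic synthetase RNA than DMSO-treated ones, and most mitochondrial genes did not pass the test. Of 18 cytosolic genes, 17 rose and 0 fell, with a median log2 change of 0.36, against 0.02 over all genes tested. Of 15 mitochondrial genes, 2 rose, 3 fell and 10 did not pass, with a median of -0.03. Over all genes tested, 26.0% rose and 22.3% fell, both larger shares than among the mitochondrial genes. The cytosolic sum was 67815 ± 641 normalized counts with palbociclib, and the mitochondrial sum was 9377 ± 280. The DMSO libraries are shared with the comparison to proliferating cells, so the opposite directions of these changes are not independent.

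GARS1, the glycine enzyme of both compartments, had the smallest adjusted p. It was at 5608, 5698 and 5384 with DMSO and at 9896, 9966 and 9729 with palbociclib, a log2 change of 0.83 ± 0.04 (SE), or 1.77-fold (adjusted p = 6.1e-10). YARS1 was at 2366, 2435 and 2468 against 3822, 4201 and 3854, a change of 0.71 ± 0.05 (adjusted p = 3.3e-08). Neither gene's palbociclib libraries overlapped those with DMSO. GARS1 with palbociclib also lay above its proliferating libraries, at 7912, 8130 and 8145. About 10.9% of the exon bases of GARS1 overlap the antisense gene GARS1-DT, whose reads cannot be separated where strand was not used.

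CARS1 had the largest change on the log scale but rests on few reads. It was at 58.4, 78.1 and 39.3 with DMSO and at 116, 115 and 95.9 with palbociclib, a log2 change of 0.93 ± 0.29 (SE, adjusted p = 0.014). The groups did not overlap. Without library A118, the lowest DMSO library, the change was 0.68 and no longer passed (adjusted p = 0.080). Without a filter on low values the adjusted p was 0.072.

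The 7 members of the multisynthetase complex all rose, with a median of 0.38. LARS1 was highest among them at 0.47, with palbociclib libraries at 2575, 2316 and 2497. EPRS1 reached 8049, 6803 and 7239, above all DMSO libraries, a change of 0.43 (adjusted p = 8.4e-05). KARS1 changed least, at 2062, 2359 and 2180 with palbociclib, all above the DMSO libraries, and a change of 0.14 (adjusted p = 0.033). Its call was lost when library A116, A117, A118, A120 or A121 was left out (adjusted p from 0.062 to 0.14), and it turned to -0.085 when all libraries were scaled to the same total. The 3 scaffold proteins of the complex rose as well, AIMP2 by 0.31, EEF1E1 by 0.28 and AIMP1 by 0.16.

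The 12 cytosolic genes listed as known ATF4 targets all rose, with a median of 0.41, and 5 of the 6 other cytosolic genes rose, with a median of 0.24. The difference between these groups was not tested. FARSA, the alpha subunit of the phenylalanine enzyme, was the cytosolic gene that did not pass, at 0.15 (95% interval -0.04 to 0.33). By the 2 structural classes of synthetase, 10 of 16 class I genes rose and 1 fell. In class II, 8 of 16 genes rose and 2 fell. EPRS1, which carries the glutamate and proline enzymes, was counted in neither class and rose.

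Sequence upstream of the start site was searched for the core of the ATF4 element, TGATGNAA, on both strands, and is shown because the cytosolic genes rose together. RefSeq windows of 250 bases on GRCh38.p14 matched 30 of the 35 genes. The motif was in 4 of these 30 genes, against 3.89% of 27305 genes. Each stretch below is read 5′ to 3′ on the gene's strand, with the match in capitals.
GARS1, chr7:30594834-30594863, plus strand: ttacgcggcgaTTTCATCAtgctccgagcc
IARS1, chr9:92293698-92293721, minus strand: ttttcagcgcgTTGCATCAcctcc
AARS1, chr16:70289675-70289704, minus strand: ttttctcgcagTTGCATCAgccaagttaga
YARS2, chr12:32756076-32756105, minus strand: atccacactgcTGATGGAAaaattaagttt
The matches in GARS1, IARS1 and AARS1 are on the reverse strand of the gene and begin 33, 13 and 187 bases before the start site. Those 3 genes rose with palbociclib, by 0.83, 0.31 and 0.36. As 17 of 18 cytosolic genes rose, most of them without a match found, the rise does not set these 3 genes apart. Of the 250 bases, 46 in GARS1, 157 in IARS1 and 189 in AARS1 lie in exons of other transcripts of the same gene. The part of the motif in the changes was not tested. The match in YARS2 begins 197 bases before the start site, and YARS2 fell.

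The mitochondrial genes that rose were RARS2 and IARS2, for arginine and isoleucine. RARS2 was at 1027, 1103 and 1109 with DMSO and at 1660, 1789 and 1609 with palbociclib, a log2 change of 0.64 ± 0.06 (SE, adjusted p = 2.0e-07). IARS2 rose by 0.34 (adjusted p = 3.5e-05). In RARS2 all palbociclib libraries were above every library of the other 3 groups. AARS2, the alanine enzyme, was at 405, 414 and 421 against 323, 340 and 327, a change of -0.32 ± 0.06 (adjusted p = 0.00075), without overlap. YARS2 was at 337, 335 and 338 against 273, 280 and 289, a change of -0.26 (adjusted p = 0.0070). TARS2 (threonine) was at 384, 368 and 309 against 237, 296 and 338, so its groups overlapped, and its change of -0.29 had an adjusted p of 0.045. That call was lost in 9 of 12 fits that left out a library, those without A116, A117, A119, A120, A122, A123, A124, A125 or A127 (adjusted p from 0.051 to 0.22).

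**Figure D2:**
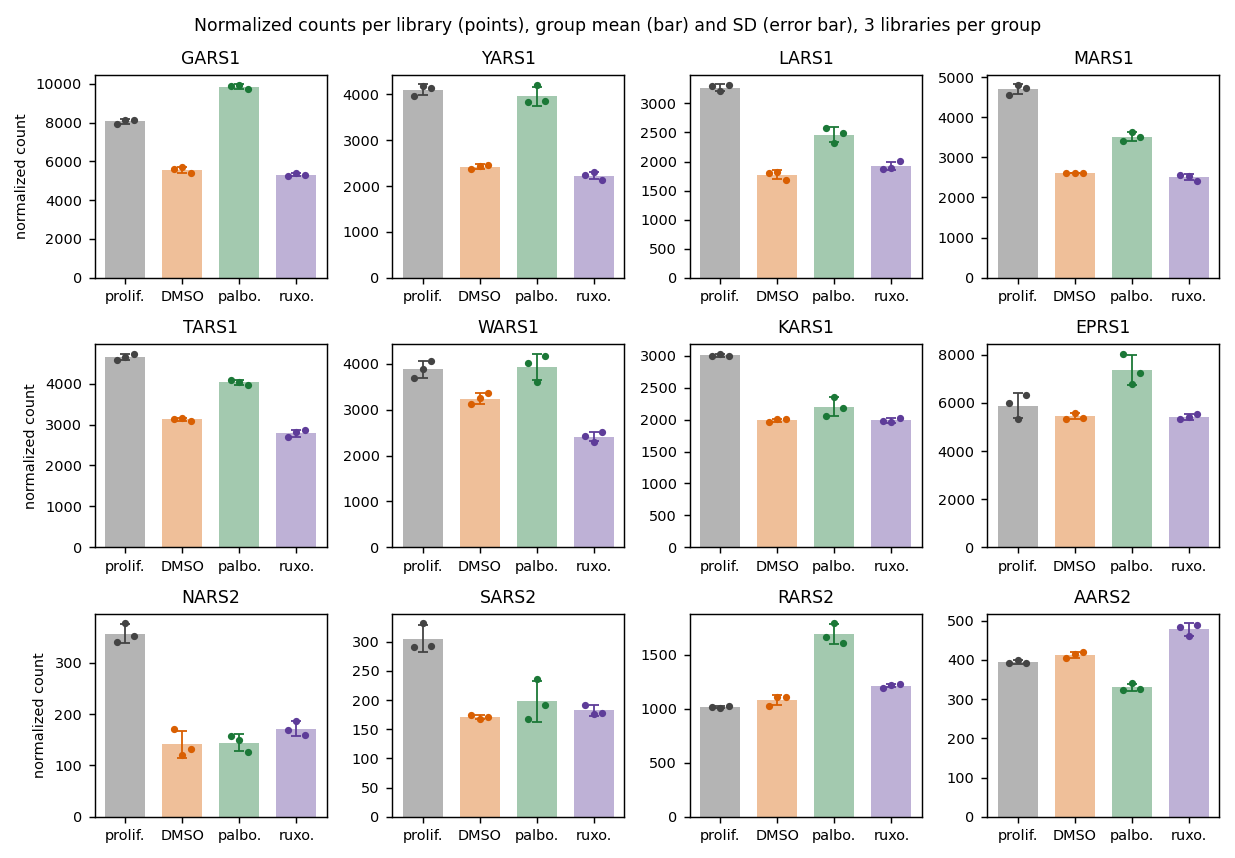
Normalized counts of 12 synthetase genes in the 4 groups; points are libraries, bars are group means and error bars are SDs of 3 libraries, with each axis starting at 0. GARS1, YARS1 and RARS2 stand higher with palbociclib than with DMSO, WARS1 stands lowest with ruxolitinib, and NARS2 stands lower in all irradiated groups than in proliferating cells.

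With ruxolitinib, WARS1 and TARS1 were lower than with DMSO and no other synthetase passed the test. Of 33 members, 0 rose and 2 fell, and over all genes tested 1.10% rose and 3.42% fell. The cytosolic median was 0.00 and the mitochondrial median 0.04. At an unadjusted p under 0.05, 4 cytosolic and 3 mitochondrial genes were higher, and 3 and 1 were lower. The share of all genes at this unadjusted threshold was not computed, so these counts cannot be set against it. edgeR and DESeq2 on recovered reads each called 0 members higher and 2 lower. Of all genes, edgeR called 1.36% higher and 3.58% lower, and DESeq2 1.77% and 3.99%. A limma fit of only these 2 groups called 5 members higher and 3 lower, where 7.50% of all genes were higher and 8.88% lower.

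WARS1 was at 3124, 3245 and 3358 with DMSO and at 2429, 2302 and 2508 with ruxolitinib. All ruxolitinib libraries lay below every other library, the proliferating ones at 3699, 3888 and 4068 included. The log2 change was -0.43 ± 0.06 (SE), or 0.744-fold, with an adjusted p of 0.00036. TARS1 was at 3144, 3156 and 3083 against 2696, 2826 and 2856, without overlap, a change of -0.16 ± 0.04 (adjusted p = 0.042). The TARS1 call was lost without library A116, A117, A118, A121, A122, A123, A124, A125 or A127 (adjusted p from 0.050 to 0.22). GARS1 changed by -0.07 (95% interval -0.16 to 0.02), KARS1 by 0.00 (-0.11 to 0.11) and EPRS1 by 0.00 (-0.15 to 0.14), and none of these passed. KARS1 was at 1975, 1964 and 2028 and EPRS1 at 5320, 5399 and 5554 with ruxolitinib. CARS1 was at 140, 106 and 53.2 with ruxolitinib, which overlapped the DMSO range, and did not pass (0.70, adjusted p = 0.22).

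Interferon genes are given beside WARS1 because it belongs to their response. All 9 type I interferon response genes tested rose in DMSO against proliferating cells, and all 9 fell with palbociclib and with ruxolitinib. WARS1 itself changed by -0.26 with irradiation (adjusted p = 0.0011), 0.28 with palbociclib (adjusted p = 0.0014) and -0.43 with ruxolitinib. It therefore moved against these 9 genes with irradiation and with palbociclib, and in their direction with ruxolitinib. These comparisons share the DMSO libraries. Scaled to the same total, WARS1 changed by -0.03 with irradiation (adjusted p = 0.64) and by 0.05 with palbociclib (adjusted p = 0.47).

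The 250 bases before the WARS1 start were searched on both strands for the interferon-stimulated response element (GAAA, any 2 bases, GAAA), which is shown because of the fall with ruxolitinib. A match begins 55 bases before the start.
WARS1, chr14:100375383-100375412, minus strand: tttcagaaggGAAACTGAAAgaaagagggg
The element was found in 2 of the 30 synthetase genes with a window, against 3.71% of all 27305 genes, and the other gene with it was EARS2. EARS2 did not pass with ruxolitinib, at 0.04 (adjusted p = 0.86). The gamma-activated site, TTCNNNGAA, was searched as well and was in 4 of the 30 genes, against 8.09% of all genes. It matched WARS1 and TARS1, 142 and 127 bases before the start, and also PARS2 and WARS2, which did not pass with ruxolitinib. All 250 bases searched in WARS1 and in EARS2 lie in exons of other transcripts of the same gene. So do 237 of the 250 in TARS1, against 0 in PARS2 and at most 1 in WARS2. The part of either element in these changes was not tested.

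The inhibitors were compared directly at their common dose of 2 µM and on the same days. Palbociclib-treated cells were higher than ruxolitinib-treated cells in 15 of 18 cytosolic genes and lower in 0, with a median log2 difference of 0.35. Of 15 mitochondrial genes 2 were higher and 1 lower, with a median of -0.13. Over all genes tested, 22.8% were higher and 17.6% lower. GARS1 differed by 0.89 ± 0.04 (SE, adjusted p = 4.6e-10), with ruxolitinib libraries at 5254, 5392 and 5289. YARS1 differed by 0.83 ± 0.05 (adjusted p = 8.3e-09), with ruxolitinib libraries at 2247, 2300 and 2139. Palbociclib libraries were above ruxolitinib libraries in both genes. WARS1 with palbociclib was at 4027, 3615 and 4163 and differed by 0.70 (adjusted p = 2.7e-07). TARS1 with palbociclib was at 4085, 4042 and 3971 and differed by 0.53 (adjusted p = 1.7e-07). Neither overlapped its ruxolitinib libraries.

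AARS2 was the member lower with palbociclib than with ruxolitinib, at 323, 340 and 327 against 484, 460 and 490. Its difference was -0.53 ± 0.06 (SE, adjusted p = 1.1e-05). RARS2 and IARS2 were the mitochondrial genes higher with palbociclib, by 0.48 and 0.27. KARS1 differed by 0.14 (adjusted p = 0.037), a call lost without library A120, A121, A122, A123 or A124 (adjusted p from 0.061 to 0.15) and turned to -0.058 at the same total. CARS1, HARS1 and FARSA were the cytosolic genes that did not pass, at 0.23 (95% interval -0.38 to 0.84), 0.11 (-0.03 to 0.26) and 0.14 (-0.04 to 0.33).

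Palbociclib-treated irradiated cells were also set against proliferating cells. Of 18 cytosolic genes 3 were higher and 7 lower, with a median log2 difference of -0.06, and of 15 mitochondrial genes 2 were higher and 9 lower, with a median of -0.26. Over all genes tested, 35.2% were higher and 38.6% lower. The higher genes were CARS1 (0.91), RARS2 (0.73), EPRS1 (0.32), GARS1 (0.29) and IARS2 (0.26). RARS2 was at 1011, 1008 and 1027 in proliferating cells, also below all palbociclib libraries. CARS1 was at 57.1, 54.3 and 60.9 in proliferating cells, below all palbociclib libraries, and its adjusted p of 0.0093 became 0.055 without a filter on low values. YARS1 differed by -0.05 (95% interval -0.16 to 0.06) and WARS1 by 0.02 (-0.11 to 0.14), and neither passed.

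The largest deficits against proliferating cells were in mitochondrial genes. NARS2 was at 158, 150 and 125 with palbociclib, a difference of -1.30 ± 0.13 (SE, adjusted p = 1.7e-07). SARS2 was at 167, 236 and 191, all below the proliferating libraries, a difference of -0.63 (adjusted p = 0.00012). FARS2 was at 117, 170 and 130 against 204, 213 and 200 in proliferating cells, a difference of -0.58 (adjusted p = 0.00060). YARS2 differed by -0.53, from proliferating libraries at 426, 393 and 401. In these 4 genes no palbociclib library reached the proliferating range. Among cytosolic genes KARS1 and MARS1 were the lowest, at -0.45 and -0.42.

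Within a library, the ratio of a cytosolic gene to its mitochondrial partner is not changed by a single scaling factor for that library, apart from the small effect of the added 1, but quantile normalization can change it. It was formed for 12 amino acids. With 3 libraries against 3 the exact two-sided permutation test cannot go below p = 0.10, so differences are given as values and overlaps. From proliferating to DMSO cells the log2 ratio was lower without overlap in 7 pairs and higher without overlap in 2, with a median difference of -0.32. With palbociclib against DMSO it was higher without overlap in 7 pairs and lower in 1, with a median difference of 0.46. With ruxolitinib it was lower without overlap in 4 pairs and higher in 0, with a median of -0.05. No share over other gene pairs was computed, so these counts are not known to be particular to the synthetase pairs. Among all single genes tested, 39.3% fell and 33.0% rose from proliferating to DMSO cells. With palbociclib 26.0% rose and 22.3% fell, and with ruxolitinib 1.10% rose and 3.42% fell.

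The tyrosine pair YARS1 to YARS2 had the largest difference with palbociclib. Its log2 ratio was 2.81, 2.86 and 2.87 with DMSO and 3.80, 3.90 and 3.73 with palbociclib, a difference of 0.97 ± 0.05 (SE). The cysteine pair was at -3.96, -3.46 and -4.49 against -2.86, -2.93 and -3.24, a difference of 0.96 ± 0.32. Both were without overlap, the cysteine pair with the wider spread. The alanine pair followed, at 0.68 ± 0.05. For alanine the log2 ratio was 3.15, 3.22 and 3.15 in proliferating cells and 2.52, 2.51 and 2.41 in DMSO-treated cells. It was 3.16, 3.08 and 3.22 with palbociclib and between 2.18 and 2.21 with ruxolitinib. The DMSO and ruxolitinib libraries were lower than the other groups, ruxolitinib lowest, and proliferating and palbociclib libraries overlapped. The arginine pair RARS1 to RARS2 went the other way, lower by 0.52 with DMSO against proliferating cells and changing by -0.37 ± 0.03 with palbociclib against DMSO. The isoleucine pair differed least with palbociclib, at -0.04 ± 0.07, with overlapping libraries at 1.32, 1.30 and 1.28 with DMSO and 1.33, 1.13 and 1.32 with palbociclib. The asparagine and serine pairs were higher by 0.94 and 0.54 with DMSO than in proliferating cells. With ruxolitinib the tryptophan pair changed by -0.53 ± 0.10 without overlap, and the cysteine pair by 0.69 ± 0.51 with overlap.

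**Figure D3:**
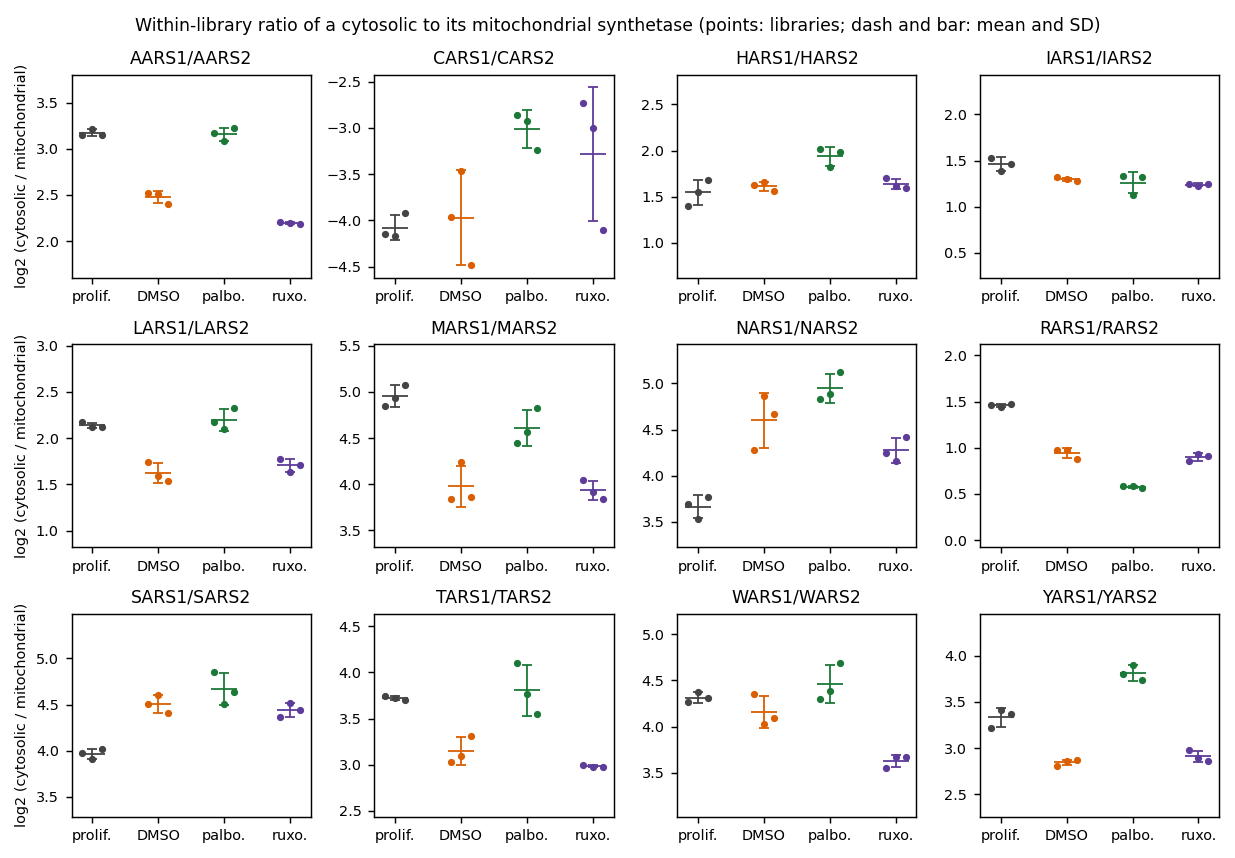
Log2 ratio of the cytosolic to the mitochondrial gene in each library for 12 amino acids; points are libraries, dashes and bars are the mean and SD of 3, and all panels span the same height. The AARS1/AARS2, LARS1/LARS2 and YARS1/YARS2 ratios are lower with DMSO than in proliferating cells and higher again with palbociclib, while RARS1/RARS2 is lowest with palbociclib.

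The scaling of the libraries sets how much of these changes appears as a rise or a fall. The summed normalized counts of all genes were lower with DMSO, at 16554893 ± 192963 (SD, n = 3), and with ruxolitinib, at 16844894 ± 60521, than in proliferating and palbociclib-treated cells, at 19409359 ± 336467 and 19369896 ± 68982. Bringing every library to the same total moved the median of all genes from -0.05 to 0.18 for DMSO against proliferating cells, and from 0.02 to -0.21 for palbociclib against DMSO. Under that scaling 14 members fell and 5 rose with irradiation, AARS2, IARS2, MARS2, PARS2 and RARS2 being the 5, where 26.4% of all genes fell and 46.9% rose. With palbociclib 11 rose and 8 fell, where 8.36% of all genes rose and 46.0% fell. Palbociclib against ruxolitinib gave 10 higher and 9 lower, against 7.53% and 40.3% of all genes.

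The cytosolic median kept its sign under each scaling for irradiation and for palbociclib, although single genes such as KARS1 and EPRS1 did not, and the mitochondrial median changed sign with irradiation. For DMSO against proliferating cells the cytosolic median was -0.21 at the same total, with 15 of 18 genes below 0, while the mitochondrial median turned from -0.13 to 0.10. At the same upper quartile the mitochondrial median was 0.02, with 3 members called higher and 15 lower, against 42.1% and 30.4% of all genes. For palbociclib against DMSO the cytosolic median was 0.14 at the same total, with 15 of 18 above 0, and the mitochondrial median was -0.25. The cytosolic minus the mitochondrial median with palbociclib was 0.39 as deposited and 0.39 at the same total, and 0.21 after quantile normalization. As a share of all listed reads, the 19 listed cytosolic genes made up 0.356% in proliferating cells and 0.350% with palbociclib, against 0.305% with DMSO and 0.294% with ruxolitinib. The 16 listed mitochondrial genes made up 0.0480% and 0.0484%, against 0.0504% and 0.0518%, in the same order.

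**Figure D4:**
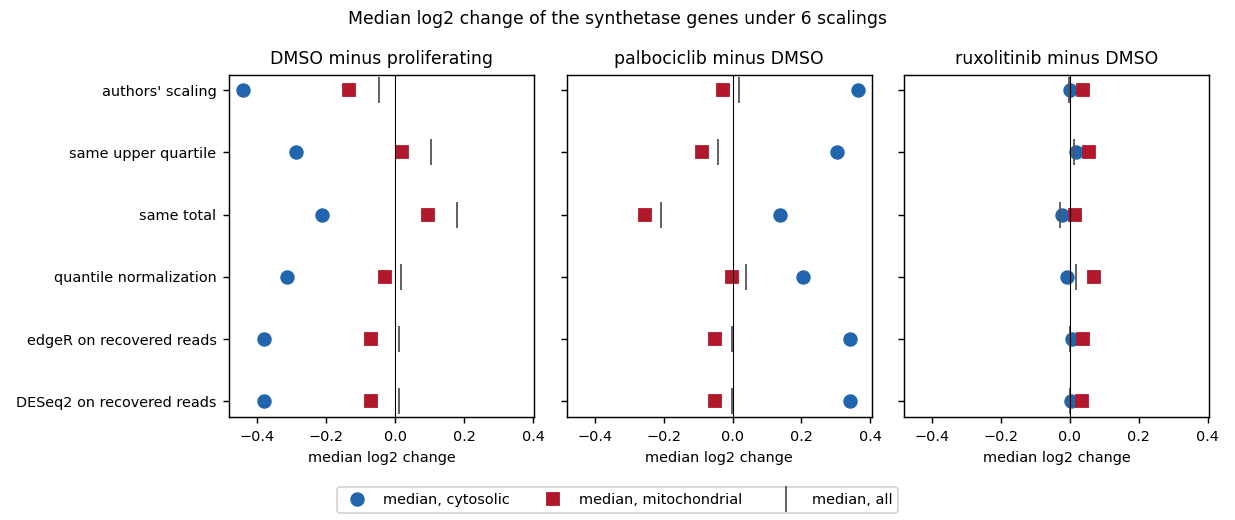
Median log2 change of the cytosolic (circles) and mitochondrial (squares) synthetases and of all genes (ticks) under 6 ways of scaling or testing, in 3 comparisons. The cytosolic median lies below the median of all genes with irradiation and above it with palbociclib under each, and the mitochondrial median changes side of 0 with irradiation.

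Other genes of translation were counted beside the synthetases. Over all genes tested, 39.3% fell and 33.0% rose with irradiation, and 26.0% rose and 22.3% fell with palbociclib. With ruxolitinib 1.10% rose and 3.42% fell. Of 76 mitochondrial ribosomal protein genes tested, 50 fell and 2 rose with irradiation. With palbociclib 15 of them rose and 6 fell, both smaller shares than over all genes. Of 9 mitochondrial translation factors, 5 fell and 1 rose with irradiation, and 1 rose and 1 fell with palbociclib. QRSL1 and GATB, subunits of the amidotransferase that makes mitochondrial glutaminyl-tRNA, fell with irradiation, by 0.70 and 0.53, and did not pass with either inhibitor. All 6 cytosolic elongation factors fell with irradiation and 5 rose with palbociclib, among them EEF1G (0.55) and EEF1A1 (0.50), which delivers charged transfer RNA to the ribosome. EEF1G and EEF1A1 also rose with ruxolitinib, by 0.35 and 0.28. Of 17 genes of transfer RNA maturation and export, 9 fell with irradiation and 0 rose, and 4 rose and 3 fell with palbociclib. XPOT, the nuclear export receptor of transfer RNA, rose by 0.35 with palbociclib.

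Genes of the amino acid response outside the synthetases were also counted. Of 28 such genes, 18 fell and 5 rose with irradiation, 19 rose and 6 fell with palbociclib, and 13 fell and 0 rose with ruxolitinib. Over all genes tested, 39.3% fell and 33.0% rose with irradiation. The shares were 26.0% and 22.3% for a rise and a fall with palbociclib, and 3.42% and 1.10% for a fall and a rise with ruxolitinib. PSAT1, a serine synthesis enzyme, rose by 1.82 with palbociclib, whereas ATF3, a stress-induced transcription factor, fell by 2.54. ASNS, asparagine synthetase, fell by 0.40 with ruxolitinib (adjusted p = 0.0022). ATF4 mRNA was at 5902, 6497 and 5603 in proliferating cells and at 4333, 4574 and 4194 in irradiated cells given DMSO. It was at 5870, 7044 and 6166 with palbociclib and at 3901, 4132 and 3997 with ruxolitinib. The palbociclib libraries were all above the DMSO libraries and the ruxolitinib libraries all below them. Its log2 change was -0.46 with irradiation and 0.54 with palbociclib (adjusted p = 1.4e-05), both passing, and -0.12 with ruxolitinib, which did not pass. The part of ATF4 in the changes of the synthetase genes was not tested.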

How the data were processed

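The authors deposited 1 table of normalized gene counts (their unit is a signal) in 12 columns. Per the submitters' processing notes the tools were Trimmomatic 0.38.1, HISAT2 2.2.1, featureCounts 2.0.3 and DESeq2 2.11.40.8, on hg38 (GRCh38). The annotation and strand setting are not given in the sources used here. Of 160380 values above 0, 100% were whole multiples of what 1 read was worth in their library (tolerance 0.01), so read counts were recovered. Columns carry a group and a library number (A116 to A127), with no replicate number.

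The main test was limma 3.58.1 (R 4.3.3) with variances following the mean, on log2(normalized count + 1), with 4 group means over 12 libraries and Benjamini-Hochberg adjustment over 11242 genes with a mean of at least 10. Calls used an adjusted p under 0.05. Changes of low genes are understated on this scale. Alternatives were pseudocounts of 0.1 and 5, other filters, 3 scalings, no trend, a fit of the 2 groups compared, each library left out, stricter thresholds, and edgeR 4.0.16 and DESeq2 1.42.0 on recovered reads. The limma script was tested on simulated data. Gene positions and lengths are from GENCODE 44 (GRCh38).

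The members, gene lists and tests were chosen with earlier results of these data known. Values in each library of the groups compared are given for the 4 largest called increases and decreases per comparison and members called with ruxolitinib. They are also given for WARS1, GARS1, KARS1, EPRS1 and, as ratios, the pairs whose ratio changed most and least with palbociclib.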

Additional observations from a re-analysis of the deposited data

How the results depend on the processing

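No paired analysis was possible because the columns carry no replicate number. Bringing libraries to equal totals, equal upper quartiles or equal quantiles gave 5, 3 and 3 members higher and 14, 15 and 15 lower for DMSO against proliferating cells (0 and 23 as reported). With equal quantiles 37.1% of all genes were higher and 34.3% lower there. Higher counts in that comparison were 1 in limma without a trend and 2 in edgeR and in DESeq2. Of all genes, 36.5% were higher in edgeR and 35.8% in DESeq2. The same total gave 11 higher and 8 lower for palbociclib against DMSO (19 and 3) and 10 and 9 for palbociclib against ruxolitinib (17 and 1). The last lower count was 4 at the same upper quartile and 2 in edgeR and DESeq2. Of all genes, 24.0%, 19.9% and 18.8% were lower there. For ruxolitinib against DMSO, 1 member was higher without a filter, with quantile normalization and without a trend, and 5 in the fit of 2 groups (0 reported). Its lower count of 2 became 1 at the same upper quartile, without a trend and at an adjusted p under 0.01. The cause of these differences was not tested, beyond the scaling itself.

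Requiring a log2 change of at least 0.5 in size left 11 lower for DMSO against proliferating cells, 4 higher and 0 lower for palbociclib against DMSO, 0 lower for ruxolitinib, 4 higher for palbociclib against ruxolitinib, and 2 higher and 4 lower for palbociclib against proliferating cells. Leaving out each library in turn gave 0 to 1 higher for DMSO against proliferating cells, 0 to 1 higher and 1 to 2 lower for ruxolitinib, and 1 to 2 lower for palbociclib against ruxolitinib. The share of all genes was not computed at the fold threshold and is not given for these fits. Those counts therefore cannot be set against it. EPRS1 turned to 0.16 (adjusted p = 0.023) with quantile normalization for DMSO against proliferating cells. KARS1 turned to -0.085 and -0.058 at the same total for palbociclib against DMSO and against ruxolitinib, short of the threshold. CARS1 rests on few reads, with a mean of 81.2 normalized counts, and had the largest standard error among the members.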
